A study of Mus musculus with 4 samples.

Results

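The genes described here are the mouse solute carriers that move sugars, amino acids, small peptides and monocarboxylates such as lactate across membranes. Every symbol of the families Slc1a, Slc2a, Slc3a, Slc5a, Slc6a, Slc7a, Slc15a, Slc16a, Slc36a, Slc38a and Slc43a followed by a number was taken from the gene tables, which gave 107 members among the 27514 genes shared by all 4 tables. A few members of these families carry other substrates, such as serotonin (Slc6a4), taurine (Slc6a6) or creatine (Slc6a8), and were kept because the choice was made by name. Their levels were read in 4 classes of cells from small intestinal adenomas: adenoma, crypt, enterocyte and immune cells.

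The adenomas came from C57BL/6 mice aged 11 weeks that all carried the ApcMin allele, a germline mutation of 1 copy of Apc that leads to intestinal tumors. Mice labelled ApcMin (ApcMin/+;Lef1 +/+) kept both wild-type copies of Lef1, a transcription factor of the Wnt pathway, and mice labelled VApcMinL (ApcMin/+;Lef1 fl/fl;Villin-Cre) carried floxed Lef1 with a Cre recombinase that the Villin promoter drives in the intestinal epithelium, so immune cells keep the gene. Each group had 2 single-cell libraries, the first made with version 2 and the second with version 3 of the 10x Genomics 3′ kit. From 3 to 10 tumors were pooled and dissociated for a library, and the cells were not sorted.

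Absorptive epithelium takes up its cargo in 2 steps. Transporters of the brush border, the apical face toward the gut lumen, load sugars, amino acids and peptides into the enterocyte, often driven by the sodium or proton gradient, and another set in the basolateral membrane releases them to the blood. Dividing cells use a different set, the glucose carrier Slc2a1 and amino acid carriers such as Slc1a5 and Slc7a5, to feed their own growth, and the Slc7 light chains of this kind reach the membrane only when bound to the heavy chain Slc3a2 or Slc3a1.

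The libraries held from 44660305 to 128247396 unique molecular identifiers (UMIs, counts of single captured transcript 3′ ends), and at most 11 barcodes were shared by a pair of libraries. Barcodes with at least 2000 UMIs and at most 20% mitochondrial UMIs were assigned to a class by marker genes, none of which is a transporter. This gave from 359 to 2267 adenoma cells, 158 to 280 crypt cells, 307 to 983 enterocytes and 148 to 497 immune cells in a library. The labels were checked first. Levels are given as UPM, the UMIs per 1000000 of a class in a library. In adenoma cells Lef1 stood at 9.07 UPM in the library labelled ApcMin and at 28.7 in that labelled VApcMinL in the first kit, and at 34.1 and 21.9 in the second, so the floxed gene was lower under the VApcMinL label in 1 of the 2 kits. A 3′ count need not detect an internal deletion. All 4 libraries are labelled male, yet Xist, which is transcribed from the inactive X chromosome of females, ranged from 113 to 1183 UPM in the gated classes of the VApcMinL libraries and was at most 0.397 in those of the ApcMin libraries. Genotype is therefore given below as the label only. The kits also differed in Fabp6, a marker of the distal small intestine, which stood at 0.620 and 0.326 UPM in the enterocytes of the first kit and at 1078 and 847 in those of the second. The labels give no gut region, so kit and a possible difference in region cannot be told apart.

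Transporters took a larger share of the RNA of enterocytes than of the other classes. All 107 members together made up 3060 ± 193 UPM in enterocytes (SD, n = 4 libraries, as for all levels), 1093 ± 123 in adenoma cells, 908 ± 73.8 in crypt cells and 1259 ± 206 in immune cells. Of the members, 33 had a mean under 1 UPM in every class, 6 of them without a single UMI, and 74 reached 1 UPM in a class. Among those 74, the highest class was the enterocyte for 31, the immune cell for 22, the adenoma cell for 13 and the crypt cell for 8. All 4 libraries of the highest class lay above every library of the other classes for 25, 8, 7 and 5 of these, respectively. UMIs count transcripts by their 3′ end whatever the length of the transcript, so levels were compared without a length correction.

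The classes were compared within libraries with edgeR's quasi-likelihood test on UMI sums, over all 13303 genes that passed the count filter, with Benjamini-Hochberg adjustment over all of them. A gene was called at an adjusted p under 0.05, and log2 differences carry standard errors (SE). Between adenoma cells and enterocytes 57 of the 72 members tested were called (79.2%), against 74.3% of all genes. The members were called lower in adenoma cells more often than higher, 39 (54.2%) against 18 (25%), where all genes had 34.5% lower and 39.8% higher. Their median log2 difference was -0.79, and that of all genes 0.12. Without the scaling between sums (TMM), an alternative chosen after the data were seen, the median of all genes moved to 0.80, the split of the members to 32 lower and 26 higher, and that of all genes from 4591 lower and 5298 higher to 2843 and 7613.

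The sugar carriers of the brush border were far lower in gated adenoma cells than in enterocytes. Adenoma and crypt cells were admitted only below a limit on enterocyte markers, so tumor cells rich in those markers are not among them. How much of the class differences in absorptive carriers the gates set was not tested. Slc5a1, the sodium-driven glucose and galactose carrier (gene at chr5:33104219-33162870, plus strand, GRCm38), stood in enterocytes at 275 and 326 UPM in the libraries labelled ApcMin and VApcMinL of the first kit and at 390 and 476 in those of the second. In adenoma cells the same libraries, in the same order, which is kept throughout, had 6.00, 8.48, 11.1 and 10.1, and in crypt cells 31.5, 30.3, 45.4 and 47.6. The ranges of the 3 epithelial classes did not overlap, with crypt cells between the other classes. The log2 difference of adenoma cells from enterocytes was -6.03 ± 0.20 (adjusted p = 3.22e-13).

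Slc2a5, the fructose carrier of the brush border, stood at 51.5, 50.7, 59.4 and 91.4 in enterocytes and between 0.643 and 1.29 in adenoma cells (log2 difference -6.94 ± 0.26, adjusted p = 9.01e-13). Slc2a2, the basolateral carrier through which glucose and fructose leave the cell, stood at 53.9, 101, 91.9 and 100 in enterocytes and between 0.572 and 2.01 in adenoma cells (log2 difference -6.77 ± 0.19, adjusted p = 8.44e-14). The apical sugar list was fixed by name and also holds members known for other cargo, such as the monocarboxylate carrier Slc5a12. All 7 of its members were called lower in adenoma cells than in enterocytes (34.5% of all genes), with a median log2 difference of -6.44. All 7 were lower in crypt cells too (33% of all genes). The largest of these differences was that of Slc5a4b, at -7.79 ± 0.28, and its near-identical copy Slc5a4a stood at -5.53 ± 0.49, but reads of such a pair can be split between the copies, so each value is uncertain. Summed, the apical sugar list made up 540 ± 130 UPM in enterocytes, 45.6 ± 11.4 in crypt cells, 18.7 ± 12.7 in immune cells and 11.7 ± 2.61 in adenoma cells.

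**Figure D1:**
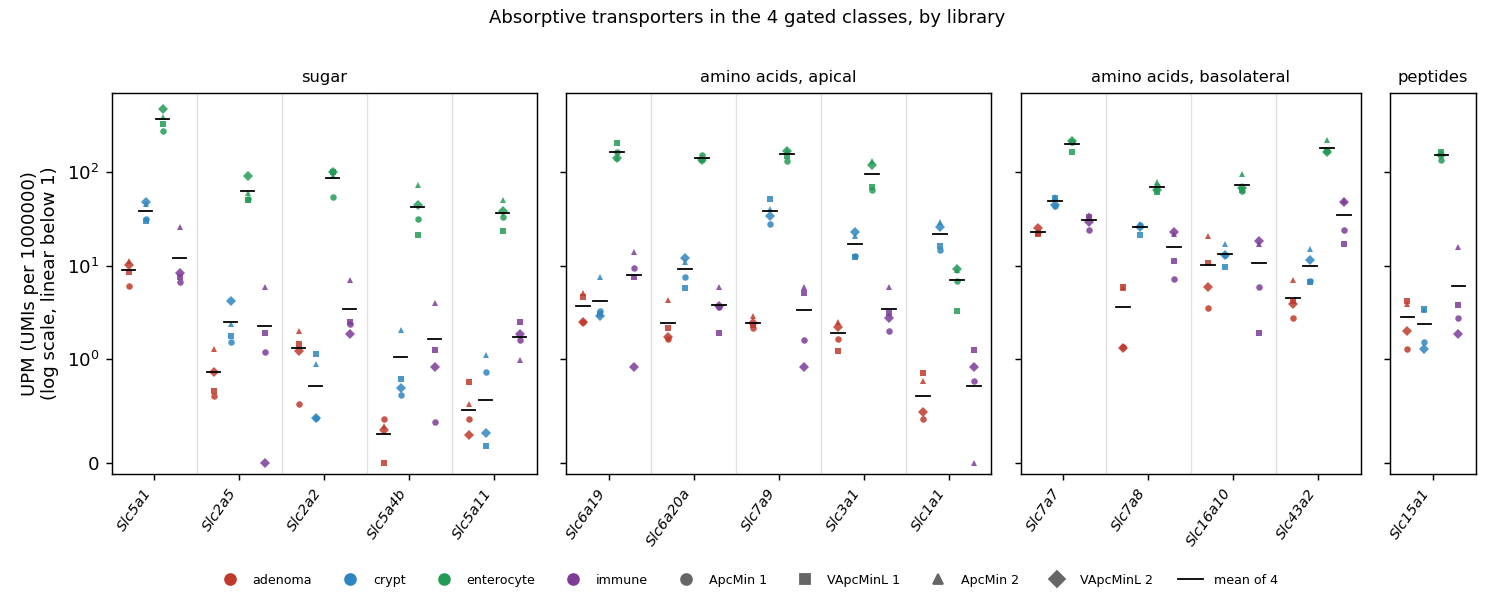
UPM (log axis, linear below 1) of absorptive sugar, amino acid and peptide transporters in the 4 classes, by colour. Each point is 1 library, shaped by label and replicate, and bars are means of 4. For Slc5a1, Slc2a2, Slc15a1 and Slc6a19 all 4 enterocyte points lie above every point of the other classes, and for Slc1a1 the crypt points, at 14.9 to 29.0, lie highest.

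Most apical amino acid carriers were highest in enterocytes too. Slc6a19, the main sodium-driven carrier of neutral amino acids in the brush border, stood at 164, 203, 141 and 142 UPM in enterocytes, against 2.50 to 5.16 in adenoma cells and 2.89 to 7.64 in crypt cells. Adenoma and crypt cells overlapped there, and both lay far below enterocytes. Of the 8 carriers listed, 6 could be tested between adenoma cells and enterocytes, while Slc6a14 and Slc6a18 had too few UMIs. All 6 were lower in adenoma cells (34.5% of all genes). The cystine and cationic amino acid exchanger Slc7a9 stood at 131, 150, 169 and 167 in enterocytes, at 27.8, 51.3, 40.8 and 34.1 in crypt cells and at 2.14, 2.34, 2.87 and 2.43 in adenoma cells. Its heavy chain Slc3a1 stood at 63.9, 70.1, 131 and 119 in enterocytes, at 12.7, 12.5, 20.5 and 22.8 in crypt cells and at 1.64, 1.21, 2.51 and 2.24 in adenoma cells. Both chains of this transporter thus ran in the order enterocyte, crypt, adenoma with no overlap, and the log2 differences of adenoma from crypt cells were -4.12 ± 0.19 for Slc7a9 (adjusted p = 1.3e-10) and -3.35 ± 0.17 for Slc3a1 (adjusted p = 2.77e-10). The level of Slc3a1 in enterocytes was higher in both libraries of the second kit than in those of the first.

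Slc1a1, which carries glutamate and aspartate, was highest in crypt cells. It stood there at 14.9, 16.4, 29.0 and 26.1 UPM, in enterocytes at 6.82, 3.26, 9.06 and 9.22 and in adenoma cells at 0.429, 0.866, 0.789 and 0.490. The 3 epithelial classes did not overlap. Crypt cells were higher than enterocytes by 1.13 ± 0.24 (adjusted p = 0.000665), and adenoma cells were lower than crypt cells by a log2 difference of -5.37 ± 0.31 (adjusted p = 1.16e-09), the largest called fall of a member in that comparison.

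Slc15a1, the proton-driven carrier of dipeptides and tripeptides, stood at 135, 165, 157 and 151 in enterocytes and at 1.29, 4.15, 3.87 and 2.01 in adenoma cells. The log2 difference was -6.54 ± 0.26 (adjusted p = 1.84e-12). On the basolateral side, 5 of the 6 listed amino acid carriers were tested and all 5 were lower in adenoma cells than in enterocytes (34.5% of all genes). Slc7a7, which exports cationic amino acids, stood at 210, 164, 207 and 213 in enterocytes, at 43.5, 52.4, 54.3 and 44.3 in crypt cells and at 22.7, 21.99, 22.6 and 24.96 in adenoma cells. Its log2 difference of -3.76 ± 0.14 was smaller in size than those of Slc5a1, Slc7a9 and Slc15a1, and the spread over the adenoma libraries was narrow. The neutral exchanger Slc7a8 had -5.14 ± 0.36, the aromatic amino acid carrier Slc16a10 -3.68 ± 0.30 and the large neutral amino acid carrier Slc43a2 -6.07 ± 0.19. Slc3a2, the heavy chain that Slc7a7 and Slc7a8 share with carriers of dividing cells, had the smallest, -1.73 ± 0.20 (adjusted p = 7.43e-07). It stood in adenoma cells at 68.1, 73.5, 88.7 and 97.4 and in crypt cells at 66.3, 63.6, 76.0 and 73.4, and the difference between those classes, 0.05 ± 0.20, was not called (adjusted p = 0.863). Slc6a8, the creatine carrier, was among the highest in enterocytes at 302, 450, 331 and 293, and stood at 36.6, 38.8, 35.0 and 35.0 in adenoma cells.

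Crypt cells did not lack all absorptive transporters alike. Between crypt cells and enterocytes 52 members were called (72.2%, all genes 62.2%), 12 higher and 40 lower in crypt cells, and the median was -1.29 against -0.08 for all genes, of which 29.2% were higher and 33% lower. Without TMM the members split into 13 higher and 37 lower, and all genes moved from 3881 higher and 4394 lower to 5785 and 2724. As a percentage of the enterocyte level in the same library, Slc2a2 in crypt cells stood at 0.85 ± 0.31%, Slc15a1 at 1.55 ± 0.65% and Slc6a19 at 2.74 ± 1.79%. Slc5a1 followed at 10.6 ± 1.13%, Slc3a1 at 18.1 ± 1.82%, Slc7a9 at 24.97 ± 6.35% and Slc7a8 at 37.4 ± 2.70%. Slc6a4, the serotonin carrier, was still at 58.1 ± 13.98%. In adenoma cells Slc2a2 stood at 1.48%, Slc15a1 at 1.82%, Slc5a1 at 2.44%, Slc3a1 at 2.02% and Slc7a9 at 1.59%, closer to each other than in crypt cells. Slc7a8 was at 5.26 ± 3.89%, with 9.64% and 7.43% in the libraries that were high, and Slc7a7 at 11.7 ± 1.22%. Slc36a1, a proton-driven carrier of small amino acids, was at 30.1 ± 7.71% in adenoma cells and 21.2 ± 5.11% in crypt cells.

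**Figure D2:**
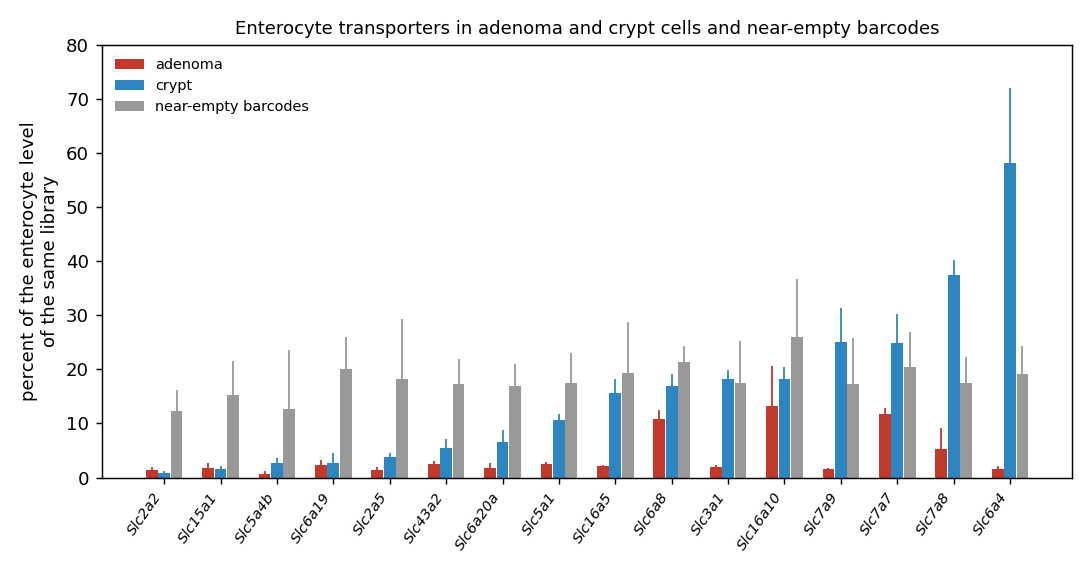
Level of enterocyte transporters in adenoma cells, crypt cells and near-empty barcodes (10 to 100 UMIs) as a percentage of the enterocyte level of the same library, on a linear axis; bars are means and lines SDs of 4 libraries. Crypt values run from 0.85% for Slc2a2 to 58.1% for Slc6a4, and adenoma values of Slc5a1, Slc3a1 and Slc7a9 stay between 1.59% and 2.44%.

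Free RNA was read from near-empty barcodes. Barcodes of 10 to 100 UMIs, which are too small for cells, held Slc5a1 at 46.5 to 77.6 UPM and Slc2a2 at 7.17 to 17.4, both above their levels in adenoma cells. As a percentage of the enterocyte level they held Slc2a2 at 12.3%, Slc15a1 at 15.3%, Slc5a1 at 17.5%, Slc3a1 at 17.4% and Slc7a9 at 17.3%. Each of these lay above the adenoma value, and they too were close to each other. What free RNA adds to the adenoma and crypt values was not tested. The enterocyte values depend on the mitochondrial limit. At no more than 10% mitochondrial UMIs, 91, 210, 148 and 195 enterocytes were left, in which the mean of Slc2a2 was 22.9 (86.6 at the 20% limit), that of Slc15a1 65.6 (152), that of Slc6a19 78.7 (163) and that of Slc5a1 175 (367). The mean of Slc7a9 was 147 (154), that of Slc7a7 160 (199) and that of Slc3a1 80.6 (96.0). The first 4 of these moved by more than 1.5 times and the last 3 did not, but Slc7a8 (52.1% of its level at the 20% limit) and Slc16a10 (38.6%), which crypt cells also held, moved as well. Each of the 7 was still highest in enterocytes. At the 10% limit 38 of 63 members were called between crypt cells and enterocytes (60.3%, all genes 56.8%), with a median of -0.81 (all genes 0.01). Of the 63, 12.7% were higher and 47.6% lower (all genes 28.3% and 28.5%). Between adenoma cells and enterocytes 46 of 63 were called (73%, all genes 70.2%), with a median of -0.61 (all genes 0.19). There 27% were higher and 46% lower (all genes 39.2% and 31.1%).

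The promoters of the absorptive carriers were searched for the letters bound by intestinal factors, over 250 bases before to 50 after the RefSeq start on GRCm38.p6. Of the 107 members, 78 had an entry in this table. GTTAAT, part of the HNF1 motif, was found on either strand in 6 of 19 absorptive carriers (31.6%) and in none of the 7 carriers of growing cells, and in 8.24% of all 27025 genes with an entry. CAAAGT, part of the HNF4 motif, was in 3 of the 19 (15.8%) and in 16.1% of all genes. CTTTGAA or CTTTGAT, the TCF and LEF motif, was in 3 of the 19 (15.8%) and in 9.88% of all genes. The promoter of Slc3a1 (chr17:85028197-85028371, plus strand), printed because it holds all 3, is shown with the matches in capitals. CAAAGT comes first, then CTTTGAA and GTTAAT, each read on the other strand. A match describes the letters only.
Slc3a1: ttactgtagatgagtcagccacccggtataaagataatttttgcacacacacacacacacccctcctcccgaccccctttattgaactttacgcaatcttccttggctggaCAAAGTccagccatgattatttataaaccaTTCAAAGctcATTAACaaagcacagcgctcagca

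Carriers known for uptake in dividing cells ran the other way. Of the 11 listed, 10 were tested between adenoma cells and enterocytes. In adenoma cells 7 were higher and 1 was lower (all genes 39.8% and 34.5%), with a median log2 difference of 2.93. Between adenoma and crypt cells 7 were higher and 1 lower (all genes 25.3% and 21%), with a median of 0.78. Summed, the list made up 348 ± 61.3 UPM in adenoma cells, 219 ± 29.0 in crypt cells, 134 ± 15.9 in enterocytes and 366 ± 130 in immune cells. These shares are of all RNA, and without TMM Slc38a2, not called with it (0.02), was also higher (0.69, adjusted p = 0.00132), while the lower call of Slc2a1 was lost (-0.10, adjusted p = 0.675). Of all genes, 57.2% were then higher in adenoma cells than in enterocytes and 21.4% lower.

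Over all members, 43 of 72 were called between adenoma and crypt cells (59.7%, all genes 46.3%), 20 higher and 23 lower. All genes had 25.3% higher and 21% lower. The median of the members was 0.10 and that of all genes 0.04. Adenoma cells were admitted only above a limit on adenoma markers and crypt cells only below one, while adenoma cells had no limit on crypt markers. How much of the differences between these classes the gates set was not tested.

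Slc1a4, which exchanges alanine, serine and cysteine, stood at 22.3, 16.3, 21.7 and 24.04 UPM in adenoma cells, at 3.28, 1.14, 2.23 and 2.74 in crypt cells and at 1.55, 0.543, 0.264 and 1.16 in enterocytes. Every adenoma library lay above every crypt and enterocyte library, with a log2 difference of 3.05 ± 0.30 from crypt cells (adjusted p = 4.08e-07) and 4.24 ± 0.33 from enterocytes (adjusted p = 7.22e-09). Slc7a11, the light chain that takes up cystine in exchange for glutamate, stood at 10.0, 10.1, 16.6 and 9.16 in adenoma cells and at most at 1.31 in crypt cells and 0.358 in enterocytes. The log2 difference was 4.01 ± 0.47 from crypt cells (adjusted p = 3.13e-06). Its level was higher still in immune cells, which is taken up below. Slc7a6, an exchanger of cationic and neutral amino acids, stood at 19.6, 13.7, 18.1 and 21.6 in adenoma cells against 2.60 to 3.75 in crypt cells (log2 difference 2.35 ± 0.22, adjusted p = 1.99e-07).

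Other carriers of the list were shared by adenoma and crypt cells. Slc1a5, the main glutamine carrier of dividing cells, stood at 48.0, 43.8, 43.2 and 51.1 in adenoma cells, at 28.9, 24.2, 27.1 and 32.2 in crypt cells and at 3.41, 2.72, 1.21 and 5.01 in enterocytes. Both proliferative classes were called higher than enterocytes, by 3.35 ± 0.24 (adjusted p = 2.91e-09) and 2.80 ± 0.25 (adjusted p = 6.36e-08). The smaller difference between them, 0.55 ± 0.20 (adjusted p = 0.0314), was as large but not called without the first-kit library labelled ApcMin (0.56, adjusted p = 0.0817) and without that labelled VApcMinL (0.53, adjusted p = 0.109). It was not called either with stricter gates (0.45, adjusted p = 0.0826), with DESeq2 (adjusted p = 0.0699) or without the library block (adjusted p = 0.0799). Slc7a5, the leucine carrier, varied more between libraries, with 26.1, 16.1, 6.74 and 10.8 in adenoma cells and 10.3, 6.17, 2.71 and 3.17 in crypt cells. The classes overlapped between kits but not within a kit, and adenoma cells were higher in each library (1.28 ± 0.22, adjusted p = 0.000163). Slc38a1, a sodium-driven glutamine carrier, stood at 64.3, 58.3, 100 and 108 in adenoma cells and at 31.3, 27.9, 57.0 and 41.4 in crypt cells (0.89 ± 0.20, adjusted p = 0.00148).

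Slc7a1, the carrier of arginine and lysine, was the member of the list that was lower in adenoma than in crypt cells, at 27.2, 21.3, 23.4 and 32.9 against 51.4, 37.6, 51.9 and 55.7 (log2 difference -1.08 ± 0.18, adjusted p = 9.1e-05). It was lowest of the epithelial classes in enterocytes, at 5.21 to 14.3. Slc2a1, the glucose carrier of most dividing cells, overlapped between adenoma cells and both other epithelial classes, while enterocytes lay above crypt cells. It stood at 36.6, 20.7, 37.6 and 38.5 in adenoma cells, at 20.6, 21.3, 19.1 and 14.4 in crypt cells and at 39.4, 49.6, 27.6 and 29.6 in enterocytes. It was called lower in adenoma cells than in enterocytes, but not with cells thinned to 2000 UMIs (-0.19, adjusted p = 0.497 from edgeR). At the 10% mitochondrial limit its enterocyte levels were 70.5, 89.7, 83.0 and 40.2. It was higher in adenoma than in crypt cells in 3 of 4 libraries, and the call of 0.67 ± 0.21 (adjusted p = 0.0155) was lost without the first-kit ApcMin library (0.68, adjusted p = 0.0564), the second-kit ApcMin library (0.63, adjusted p = 0.0704) or the second-kit VApcMinL library (0.45, adjusted p = 0.142), with about the same difference in the first 2 cases.

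The promoters of these carriers were searched for TGATGNAA, the amino acid response motif that ATF4 binds, on both strands of the same windows. It was found in 2 of the 7 carriers of growing cells with an entry (28.6%), in 1 of the 19 absorptive carriers (5.26%), Slc7a7, in 6.41% of the members and in 4.51% of all genes. Both promoters of the first set are printed, since they belong to carriers that were higher in adenoma cells than in the other epithelial classes, with the motif in capitals. Slc7a11 (chr3:50443589-50443763, minus strand) holds it on each strand, the copies lying close together, and Slc1a4 (chr11:20332689-20332863, minus strand) holds 1 copy, read on the other strand. CTTTGAA or CTTTGAT was in 1 of the 7 (14.3%), Slc7a1.
Slc7a11: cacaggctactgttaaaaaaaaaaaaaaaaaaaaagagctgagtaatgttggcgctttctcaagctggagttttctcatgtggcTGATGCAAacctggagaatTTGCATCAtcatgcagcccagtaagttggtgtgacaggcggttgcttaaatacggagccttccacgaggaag
Slc1a4: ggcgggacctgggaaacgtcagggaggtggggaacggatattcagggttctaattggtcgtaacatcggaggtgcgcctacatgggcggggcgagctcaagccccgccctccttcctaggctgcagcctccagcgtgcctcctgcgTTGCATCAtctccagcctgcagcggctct

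Slc38a4, which carries neutral and cationic amino acids and is best known from placenta and liver (gene at chr15:96994820-97055956, minus strand), was outside the list. It stood in adenoma cells at 55.6, 248, 178 and 62.6 UPM and at no more than 4.78 in any library of the other classes. The log2 differences were 6.03 ± 0.36 from crypt cells (adjusted p = 1.61e-09) and 5.16 ± 0.33 from enterocytes (adjusted p = 5.31e-10), the largest called rises among members of at least 20 UPM. Free RNA held it at 22.1 to 52.6 UPM. The spread between adenoma libraries was wide, and the high libraries were the VApcMinL library of the first kit and the ApcMin library of the second. Nkd1 and Notum, negative regulators that the Wnt pathway induces, were high in the same libraries, at 142, 633, 456 and 151 UPM and at 90.7, 417, 282 and 90.1. Both were among the markers that chose the adenoma cells, so this is a description only. The promoter windows of Slc38a4 held none of the 4 motifs.

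Slc38a4, Slc1a4 and Slc7a6 were among the 7 members for which every adenoma library lay above every library of the other classes. The others were low. Slc16a14, a carrier of the monocarboxylate family with little known cargo, stood at 2.36, 3.12, 8.53 and 4.30 UPM in adenoma cells and at no more than 0.922 elsewhere. Slc6a17, a neutral amino acid carrier known from synaptic vesicles, stood at 1.29, 2.08, 4.37 and 1.56, and at most at 0.397 elsewhere, and Slc43a1, a large neutral amino acid carrier, at 1.41 to 2.94. Free RNA held Slc16a14 at 0.860 to 2.25, below the adenoma value of each library, and Slc6a17 at 0.872 to 1.80, below it in 3 of 4. Slc36a4 set adenoma cells apart from crypt cells without being their own: it stood at 4.36, 3.81, 7.03 and 5.33 in adenoma cells, had 1 UMI in all crypt cells together and stood at 1.89 to 8.96 in immune cells and at 5.52 to 13.96 in free RNA. These low members, apart from Slc43a1, were named after their values were seen.

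**Figure D3:**
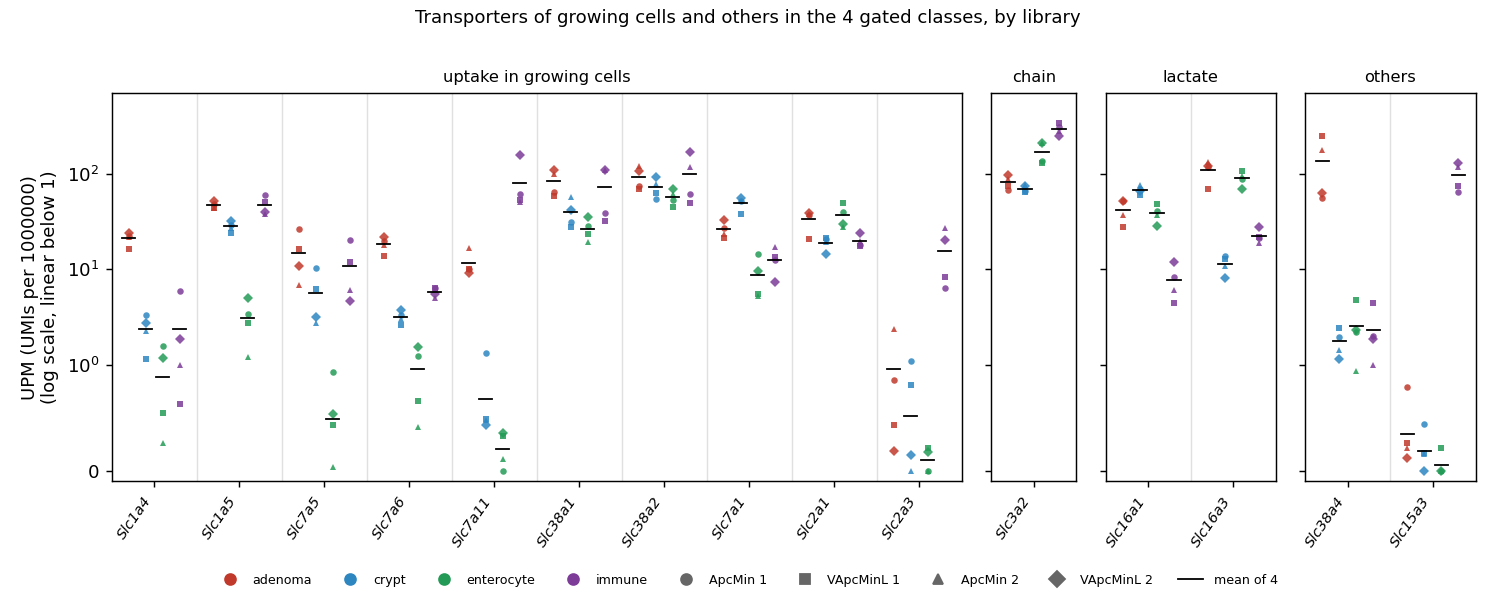
UPM (log axis, linear below 1) of carriers known for uptake in dividing cells, of the heavy chain Slc3a2, of lactate carriers and of Slc38a4 and Slc15a3 in the 4 classes, by colour; points are libraries and bars means of 4. The 4 adenoma points of Slc38a4, at 55.6 to 248, lie above all others, those of Slc1a4, at 16.3 to 24.04, lie above the crypt and enterocyte points, and those of Slc2a1 overlap with the enterocyte points.

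The lactate carriers divided between the classes. Slc16a3, which exports lactate from glycolytic cells, stood at 118, 69.3, 133 and 119 in adenoma cells, at 88.0, 106, 94.2 and 69.0 in enterocytes and at 13.8, 12.7, 10.8 and 8.08 in crypt cells. Adenoma cells and enterocytes overlapped (log2 difference -0.37 ± 0.19, adjusted p = 0.094), and adenoma cells were higher than crypt cells by 3.11 ± 0.22 (adjusted p = 1.4e-08). Slc16a1, which moves lactate either way, was lower in adenoma than in crypt cells, at 51.2, 27.4, 36.8 and 52.3 against 69.3, 60.04, 76.9 and 65.2 (-0.88 ± 0.20, adjusted p = 0.00208). Against enterocytes it was called lower (-0.56, adjusted p = 0.0218), a call that was lost without the first-kit VApcMinL library (-0.26, adjusted p = 0.254), without the second-kit ApcMin library (-0.46, adjusted p = 0.116) and at the 10% mitochondrial limit (-0.38, adjusted p = 0.121), and turned to 0.10 without TMM. Slc16a5 was an enterocyte carrier, at 89.0, 65.9, 44.2 and 43.6, against 0.950 to 2.07 in adenoma cells. Of 7 listed partner genes of the transporters that were tested, 1 was higher in adenoma cells than in enterocytes and 5 were lower (all genes 39.8% and 34.5%). The higher one was Emb, a partner protein of Slc16 carriers, by 3.85 ± 0.41 (adjusted p = 2.75e-07 from edgeR). Bsg was among the lower ones, at -0.50 ± 0.20 (adjusted p = 0.0354 from edgeR).

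Genes that work next to the transporters were read from lists, to be set against the 39.8% of all genes called higher and 34.5% called lower in adenoma cells than in enterocytes. All 8 brush-border hydrolases, which cut sugars and peptides into the cargo of these carriers, were lower in adenoma cells and in crypt cells than in enterocytes, with sucrase-isomaltase (Sis) at -7.66 ± 0.26 in adenoma cells. Khk, which phosphorylates fructose, was lower as well (-5.75 ± 0.19). Of 16 glycolysis genes 2 were higher (Hk1 and Ldhb) and 10 lower in adenoma cells than in enterocytes, among them Hkdc1 at -5.63 ± 0.21 and Pfkp at -3.36 ± 0.16, and against crypt cells 7 were higher and 2 lower (all genes 25.3% and 21%). Of 10 genes of the amino acid response and serine synthesis 6 were higher than in enterocytes, led by the serine synthesis enzymes Phgdh (4.92 ± 0.34, adjusted p = 1.8e-09) and Psat1 (3.78 ± 0.34, adjusted p = 2.95e-08). The 4 lower ones included Atf4 (-0.68 ± 0.16) and the stress-induced regulators Ddit3 (-1.91 ± 0.21) and Trib3 (-1.07 ± 0.36). Crypt cells shared this split, with 6 higher than in enterocytes and 4 lower (all genes 29.2% and 33%), Phgdh at 3.81 ± 0.35 and Psat1 at 3.09 ± 0.36. In adenoma cells 3 of the 10 were higher than in crypt cells (Phgdh, Psat1 and Trib3) and 0 lower (all genes 25.3% and 21%).

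Immune cells were the highest class for 22 of the members that reached 1 UPM. For 8 of these every immune library lay above every library of the other classes. Against the mean of the 3 epithelial classes 51 of the 72 members were called (70.8%, all genes 62.1%). Of the members 25 were higher (34.7%) and 26 lower (36.1%), where all genes had 32.2% higher and 29.8% lower. The share called higher was thus close to that of all genes. The median was -0.36, and that of all genes 0.00. Slc15a3, which exports peptides and histidine from lysosomes, stood at 64.4, 75.0, 117 and 128 UPM in immune cells, while the epithelial classes held at most 11 of its UMIs in a library (log2 difference 9.39 ± 0.34, which rests on those few UMIs, adjusted p = 4.45e-13). Slc15a4, its relative in endolysosomes, was higher by 1.73 ± 0.17 (adjusted p = 1.78e-07). Slc3a2 stood at 309, 340, 277 and 251, above every epithelial library, and was higher by 1.56 ± 0.15 (adjusted p = 1.74e-07). Slc38a9, the arginine sensor of the lysosome, was higher by 1.61 ± 0.20, but its immune level was 9.94 and 8.20 in the first kit and 35.8 and 38.7 in the second. Slc2a3, a glucose carrier of leukocytes, stood at 6.36, 8.20, 26.9 and 20.3 and was at most 2.37 in epithelial cells. The immune fall of Slc5a8, an apical monocarboxylate carrier, is against 0 UMIs, so no fold is given.

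The immune carriers differed by lineage when the cells were split by T, B and myeloid markers. Slc15a3 stood at 220, 266, 302 and 259 UPM in myeloid cells. Slc7a11 stood at 248, 187, 121 and 284 in myeloid cells and at no more than 2.58 in T cells and 25.3 in B and plasma cells. The myeloid values rest on 115, 74, 32 and 69 cells. Slc6a6 and the amino acid exporters Slc7a7 and Slc43a2 were read in myeloid cells too, at 101 to 129, 52.0 to 106 and 44.4 to 105. Slc3a2 was shared, at 316, 539, 388 and 338 in B and plasma cells, 265, 329, 404 and 255 in T cells and 327, 254, 219 and 229 in myeloid cells. Slc1a5 was at 83.3, 82.8, 78.6 and 43.8 in T cells and at 20.1, 37.0, 25.4 and 29.5 in myeloid cells, with no overlap. These are levels with no test.

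**Figure D4:**
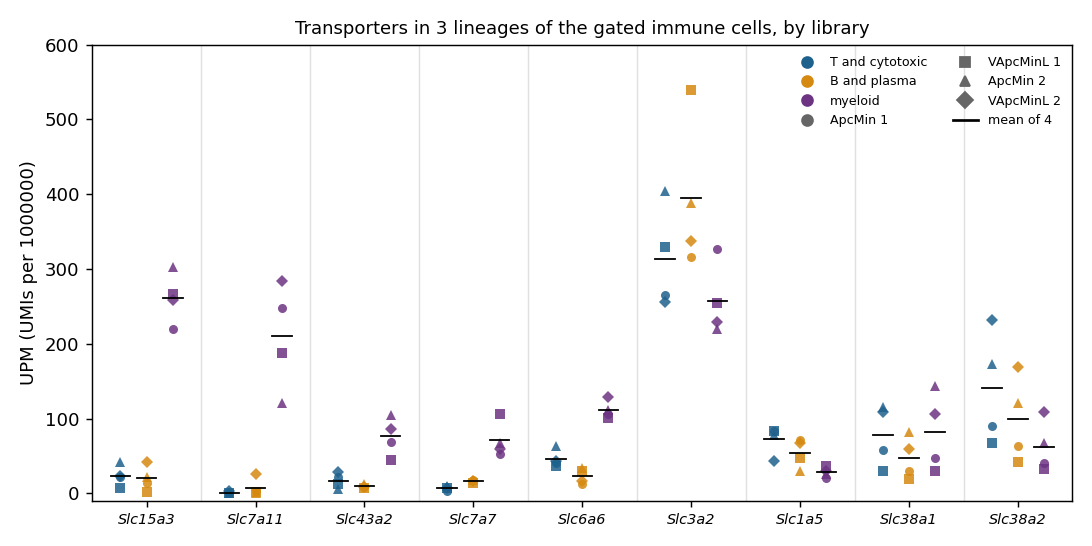
UPM (linear axis) of 9 members in 3 lineages of the immune cells, by colour; points are libraries and bars means of 4. Slc15a3 and Slc7a11 lie highest in myeloid cells in all 4 libraries, at 220 to 302 and 121 to 284, and Slc3a2 overlaps between the lineages.

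The labelled genotype was compared within each class with the kit as a term, which left 1 residual degree of freedom. No member was called in adenoma cells (57 tested, 0% of 12874 genes called), crypt cells (49 tested, 0.00928% of genes), enterocytes (55 tested, 0.0374%) or immune cells (32 tested, 0.0565%) by edgeR's quasi-likelihood test, and DESeq2 called none either. At an unadjusted p under 0.05 edgeR had 0, 3, 4 and 0 members, and DESeq2 0, 0, 2 and 0. The difference between adenoma cells and enterocytes did not differ by label for any of 73 members at the adjusted threshold (0% of 13758 genes), with 3 at an unadjusted p under 0.05. Data were simulated with the library totals of these sums, the same spread for every gene and no kit difference. Of genes changed 4-fold there, 90.5% were called in adenoma cells, 93% in crypt cells, 91% in enterocytes and 83.5% in immune cells. These shares need not hold for members that vary more between libraries or differ between kits, so they do not exclude 4-fold differences in members. Of genes changed 2-fold in the simulation, 15.5%, 0%, 9% and 6% were called, so most differences of that size would be missed with these libraries.

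In adenoma cells the pairs of libraries often disagreed. Slc38a4 was higher under the VApcMinL label by 2.15 on the log2 scale in the first kit and lower in the second, -1.51 (log2 difference 0.31 ± 1.07, adjusted p = 1 from edgeR). Slc16a3 was lower under that label in both kits, by -0.76 and -0.16 (adjusted p = 1). Slc16a10, at 3.57, 10.6, 20.7 and 5.93 UPM, turned between the kits as well. Slc3a2 was close to 0 in both, at 0.11 and 0.13. In enterocytes Slc16a9, a carnitine carrier, stood at 2.48 and 2.23 in the ApcMin libraries and at 7.39 and 9.22 in the VApcMinL libraries, so the labels did not overlap (log2 difference 1.88 ± 0.41, unadjusted p = 0.000597 from edgeR, adjusted p = 0.532). It was called only when no count filter was used (adjusted p = 0.0101). Slc5a6, a vitamin carrier, was at 7.13 and 10.0 against 19.3 and 17.0 (log2 difference 1.06 ± 0.29, adjusted p = 1). Slc5a1 in enterocytes was higher under the VApcMinL label in each kit, by 0.25 and 0.29, and was not called (adjusted p = 1).

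**Figure D5:**
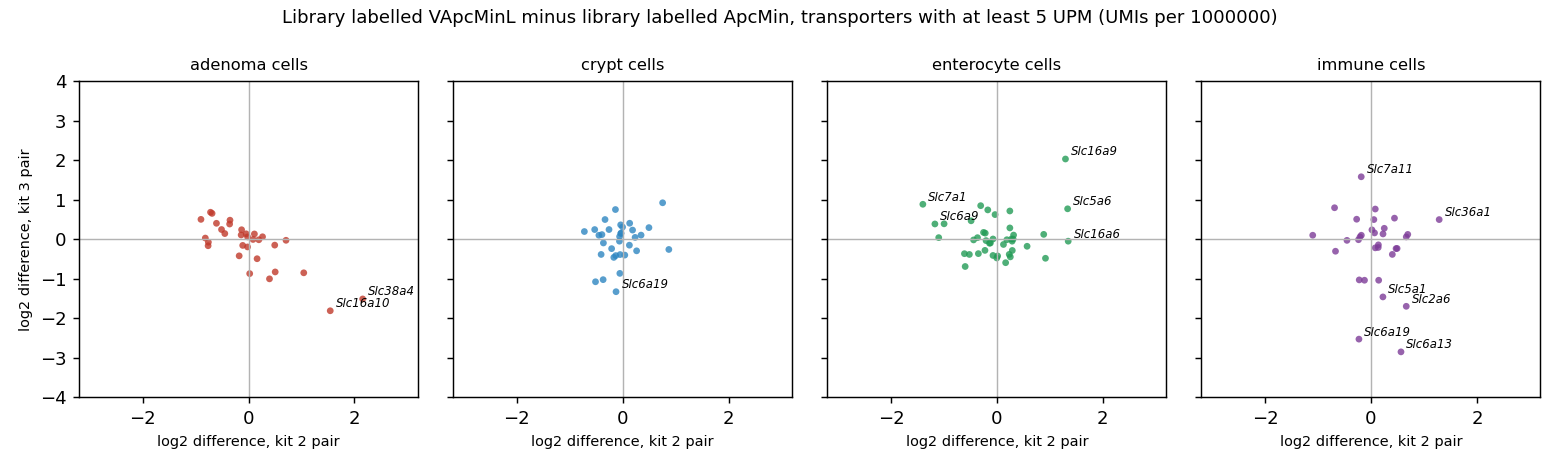
Log2 difference (library labelled VApcMinL minus library labelled ApcMin) of members with at least 5 UPM, in 1 panel for each class. The x axis gives the pair of kit 2, the y axis the pair of kit 3, and each point is 1 member. Slc38a4 in adenoma cells lies at 2.15 and -1.51, and Slc16a9 in enterocytes at 1.30 and 2.03.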

How the data were processed

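The authors deposited raw UMI counts per gene and barcode for all barcodes. Per the labels and the study's methods, the counts were made by Cell Ranger (version 2.1.1) with mm10 (GRCm38) as the genome, and the headers of the kit 3 files name a later release. Genes were matched by identifier across the 4 gene tables, and the genes left out held 0.192% to 0.568% of the UMIs. Each barcode was scored by the UMIs per 10000 of marker lists (adenoma markers such as Nkd1, Notum and Axin2, crypt markers such as Olfm4 and Lgr5, enterocyte markers such as Alpi and Fabp1, immune markers such as Ptprc). Adenoma and crypt cells could hold at most 60 enterocyte marker UMIs per 10000, and enterocytes had to hold at least 200. Adenoma cells had to hold at least 6 adenoma marker UMIs per 10000, with no upper limit on crypt markers. Crypt cells had to hold at least 10 crypt marker UMIs and at most 2 adenoma marker UMIs per 10000. In a gated sum, from 7 to 160 cells lay within 1.5 times of the lower limit on the markers of their own class. Cells near the other limits were not counted. Barcodes with both epithelial and immune markers were left out, and removal of doublets called by Scrublet was an alternative only. Mitochondrial filtering removed from 20.4% to 61.6% of the barcodes of a library. UMIs were summed per library and class into 16 sums, with levels as UPM, the UMIs per 1000000 of the sum.

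Classes were compared with edgeR 4.0.16 in R 4.3.3 (TMM, filterByExpr at a minimum count of 10, glmQLFit and glmQLFTest) with library as a block, and genotype labels within a class with kit as a term. Marker genes of the gates were not tested. Samples with the same replicate number deviated together in each class (r of 0.142 to 0.633 over genes), and the labels tie the number to the kit. The labels do not say that libraries came from separate mice, so p-values measure the spread between these libraries. Members and lists were chosen with earlier results of these data known. Named members were those of the role lists, the 6 highest of each class and the 5 largest called differences each way with at least 20 UPM and 1 sign in all libraries, or for genotype the 3 largest with 1 sign in both kits. Other genes named in the text were chosen after their values were seen. Both fits were tested on simulated data. DESeq2 1.42.0 and other filters, gates and scalings were the alternatives. Promoters came from RefSeq and gene positions from GENCODE on GRCm38. Some items are not reported here.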

Additional observations from a re-analysis of the deposited data

How the results depend on the processing

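Of the log2 differences of named members between classes, 1979 values under the alternatives kept their direction and side of the threshold, 86 lost the call and 1 turned, Slc16a1 between adenoma cells and enterocytes (0.10 without TMM). Only differences called in the main fit were counted, some of them named for their size, so most were likely to keep the call and none could gain it. Members that an alternative did not test were left out of its tally. Thinning every cell to 2000 UMIs left 44 members to test and called 36 (adenoma and enterocyte), 24 (adenoma and crypt), 33 (crypt and enterocyte) and 31 (immune). For the genotype labels, 1 member was called in enterocytes without a count filter, Slc16a9 (log2 difference 1.84, 92 members tested). With 1 library left out in turn, the label difference of Slc38a4 in adenoma cells ran from -0.91 (without VApcMinL replicate 1) to 1.37, with -0.05 without ApcMin replicate 1, and that of Slc5a4b in enterocytes from -1.29 to 0.04 (without ApcMin replicate 2). The cause was not tested. Without the replicate block, 54, 40, 49 and 49 members were called in the class comparisons and 0 in each genotype comparison. At an unadjusted p under 0.05, members then numbered 1 in adenoma cells, 2 in crypt cells, 2 in enterocytes and 0 in immune cells, and genes 21, 32, 38 and 77, against 30, 296, 177 and 588 with the block. Of the mean levels, 27 moved by more than the spread between libraries and 773 did not. With 2 libraries for each label, 2-fold differences were mostly below what the test could call.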

Other observations

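Some low members marked crypt cells. Slc1a2, a glutamate carrier best known from glia, stood at 3.50, 1.62, 3.82 and 1.44 UPM in crypt cells and at no more than 0.502 in any library of the other classes. Slc16a12, a creatine carrier, stood at 7.43, 5.19, 13.1 and 6.06 in crypt cells and at no more than 3.69 elsewhere. Both were lower in the VApcMinL than in the ApcMin libraries of each kit in crypt cells, with an unadjusted p of 0.0271 and 0.0174 from edgeR and no call after adjustment. They were named after their values were seen.

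Enterocytes with at most 10% mitochondrial UMIs were not lower in every transporter. Slc2a1 stood there at 70.5, 89.7, 83.0 and 40.2 UPM, a mean of 70.8 against 36.6 at the 20% limit. Slc16a3 had a mean of 113 against 89.2, and Slc6a6 of 104 against 111. Slc2a2 was at 26.5% of its level at the 20% limit, Slc5a4b at 29.0%, Slc7a15 at 34.3% and Slc6a20a at 38.4%, whereas Slc7a9 was at 95.2% and Slc6a4 at 95.6%. Slc5a8 was at 107%. How the filter selects enterocytes was not tested.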
